A study of Homo sapiens with 12 samples.

Results

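The loci described here are genes whose called eIF3 sites in 1 gel band of activated Jurkat cells were all counted outside annotated mRNA regions. Some of them had mRNA sites in other bands, as given below. They were taken from the lists of genes with called crosslinking sites in the EIF3A/C/B band of activated cells. They were chosen by these measured site counts. Counts of both replicates were added per gene, and a gene was kept where no site fell in either UTR, the coding region or at a start or stop codon and its name was not that of a microRNA, a small nucleolar, Cajal body or spliceosomal RNA, a TR gene or a CH507 clone. The rule kept 752 of the 5518 listed genes (13.6%). Of the other genes, 4587 had at least 1 mRNA site, and the excluded names took 136 MIR, 32 RNU, 4 SNOR, 4 TR and 3 CH507 genes.

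Each gene carries 1 annotation type in the lists, and 7 classes were formed from it. There were 168 pseudogenes, 139 introns of annotated genes, 118 processed transcripts, 84 long intergenic noncoding RNAs (lincRNAs), 128 other noncoding types, 90 exon-intron boundaries and 25 small RNAs whose names the excluded prefixes did not catch. The boundary class goes against a plain reading of these loci as free of mRNA sequence. Its sites span a UTR or coding segment and the adjoining intron, 61 of them from a 5'-UTR into an intron, and the separate junction column that should count them holds 0 in every list. The other noncoding types were led by 75 antisense and 29 nonsense-mediated decay transcripts, the second of which come from protein-coding genes. For 11 loci the type differed between the replicates, and the type of the replicate with more reads was used.

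eIF3 is a large translation initiation factor of many subunits and joins the small ribosomal subunit to mRNA. It is a mainly cytoplasmic complex, so its textbook partners are spliced mRNAs and ribosomal RNA. Introns are removed in the nucleus before export. A lincRNA is a spliced transcript without a long open reading frame, and many lincRNAs reach the cytoplasm. A processed pseudogene is a copy of a mature mRNA that was inserted back into the genome, so a short read can match both the copy and its parent. A processed transcript is an annotated transcript with no open reading frame, often an isoform of a coding gene.

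The study used PAR-CLIP on Jurkat Clone E6-1 cells, a human T cell leukemia line that is a single clone. All cells received 50 µM 4-thiouridine, which marks crosslinked RNA by T-to-C conversions in the reads, 7 hr before the activation step, and were irradiated at 365 nm (364 nm in the series design). The activated cells were treated with PMA and ionomycin for 5 hr and the non-activated cells were not. An antibody to EIF3B was used to pull down eIF3. The RNA came from 5 gel bands, each called after the subunits it held (EIF3A/C/B, EIF3B/C, EIF3D/L, EIF3F/E, or EIF3G/E/F), with 2 replicates of each state and 20 libraries in all. RNA-Seq of both states was also deposited, as a mean of 2 replicates. For replicate 2, the state labels are those that stand after a correction by the depositors.

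A site is listed only where a cluster of overlapping reads held at least 7 reads, so a gene that is not listed in a library is not a gene with 0 reads there. Libraries held 83846 to 1163754 uniquely aligned reads. Activated cells had 13.7 times the aligned reads of non-activated cells in EIF3A/C/B, 3.72 times in EIF3B/C, and 1.23 to 1.36 times in the other bands. The 2 non-activated EIF3A/C/B libraries agreed within sampling noise over the 117 genes in both (chi-square per degree of freedom 0.820), and so did the non-activated EIF3G/E/F pair over 48 genes (0.844). Over 34 RNA classes the EIF3A/C/B pair differed by less than sampling noise (0.337, lower-tail p = 0.00013, chi-square test), and why was not tested. The EIF3G/E/F pair was within noise over 33 classes (0.911). The non-activated EIF3F/E pair was at 0.883 over 35 classes but at 2.13 over 109 genes. Calls on RNA classes in EIF3A/C/B and EIF3G/E/F are given with both libraries of the pair and with the pair counted as 1 sample. In the RNA-Seq means the T cell genes CD3D and LCK were at 39.1 and 10.5 TPM (a transcript's length-scaled share of the library) in activated cells and at 161 and 67.1 TPM in non-activated cells, while MS4A1 and CD14, which mark B cells and monocytes, were at or below 0.06. The B cell gene CD79A stood at 0.565 and 4.82 TPM and the macrophage gene CSF1R at 0.0687 and 0.196 TPM. The T cell genes CD3E, CD3G, CD2 and CD28 were at 3.29, 3.43, 2.97 and 2.42 TPM in activated cells. In non-activated cells they were at 11.6, 20.8, 14.9 and 4.32 TPM. Over 8487 genes the median log2 ratio of activated to non-activated TPM was -2.35, so TPM of the states is not on 1 scale.

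Sequence is shown first for 2 pseudogenes, because how far a read can tell a copy from its parent bears on every value given for that class. The lists hold no cluster coordinates, so the windows below are not the crosslinked sites. Each is a 30-base stretch of GRCh38 in which the copy and the coding sequence of its parent differ at 1 base, written 5' to 3' on the transcript strand with that base, position 15 from the left, in capitals. PTMAP5 is a copy of PTMA, the mRNA of the nuclear protein prothymosin alpha, and UQCRFS1P1 is a copy of UQCRFS1, the mRNA of the Rieske protein of respiratory complex III. The substitutions, parent base first, are A15G in PTMAP5 and A15G in UQCRFS1P1.
PTMA, chr2:231708714-231708743, plus strand: acgcagccgtagacAccagctccgaaatca
PTMAP5, chr13:81690075-81690104, plus strand: acgcagccgtagacGccagctccgaaatca
UQCRFS1, chr19:29208111-29208140, minus strand: attcccacacagacAtcaaggtgcctgact
UQCRFS1P1, chr22:39875523-39875552, plus strand: attcccacacagacGtcaaggtgcctgact
Reads of 20 bases, the shortest that were aligned, match both genes only where they cover no base at which copy and parent differ.

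Most of the loci carried few reads. The median was 16 reads in each replicate of activated EIF3A/C/B, against 27 in each replicate for genes with mRNA sites, and 557 of the 752 had 1 site in every replicate where they were listed. With an unlisted replicate entered as 0, only 37 had a mean of at least 100 reads, and 509 had a mean under 20. Reads per site were closer, with medians of 13 and 13 against 14.5 and 14.5, and the mean number of sites was 1.45 and 1.49 against 2.57 and 2.60. These are values of the libraries that chose the loci, so they are a description with no test. Just outside the rule stood genes of the same types with exactly 1 mRNA site, led by BCOR (120 and 134 reads), MOB1A (109 and 121) and ATP5A1 (111 and 102).

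Of the 752 loci, 459 (61.0%) were listed in both replicates, against 3699 of 4587 genes with mRNA sites (80.6%). Both replicates entered the rule, which keeps a gene with a single site in 1 replicate, so these shares are a description with no test. The share was 46.4% for pseudogenes, 62.7% for processed transcripts, 63.3% for introns and 72.6% for lincRNAs. The 293 loci listed in a single replicate had a median of 9 reads, near the minimum of 7. Only 6 of them held at least 50 reads, namely AC007040.8, PARD3B, POLN, PPIAP31, RP5-875O13.1 and RPL7P50. Where both replicates listed a locus, its reads lay within a factor of 2 for 413 of 459 (90.0%), against 3448 of 3699 (93.2%) of genes with mRNA sites.

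**Figure D1:**
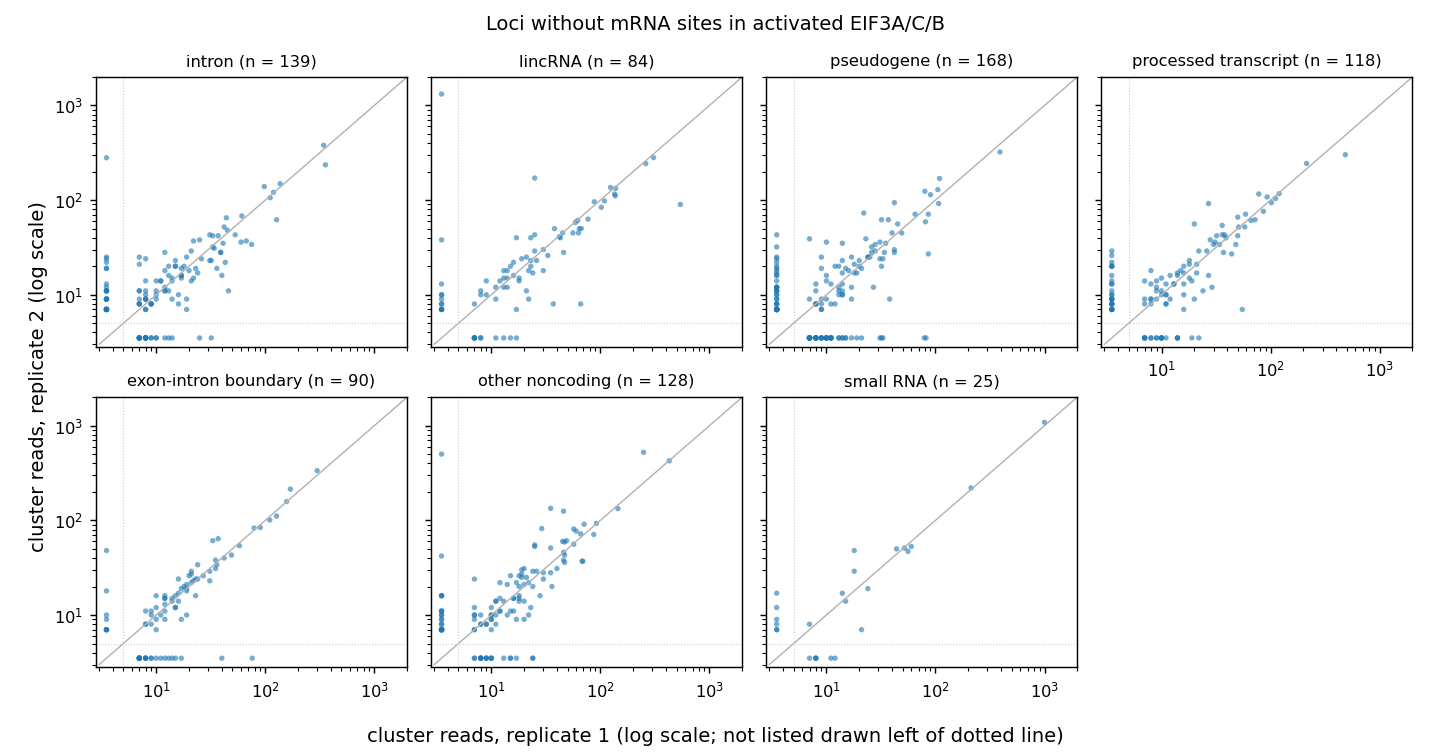
Reads of each locus in replicate 1 (horizontal) and replicate 2 (vertical) of activated EIF3A/C/B, on log axes, in 1 panel per class, with loci that a replicate does not list drawn beyond the dotted lines. Most points lie near the diagonal at low values, and 6 of the 293 loci listed in only 1 replicate hold 50 reads or more.

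The T-to-C fraction, the share of a site's reads that carry a conversion, had a median close to that of mRNA sites in every large class. Its median was 0.87 and 0.88 for introns, 0.885 and 0.86 for lincRNAs, 0.87 and 0.87 for pseudogenes and 0.89 and 0.88 for processed transcripts, and 0.88 and 0.87 for genes with mRNA sites. Small RNAs were lower, at 0.71 and 0.76. The low tail was not as close. A fraction under 0.5 was found at 4.69% and 4.24% of pseudogenes and 0.885% and 6.14% of introns, against 0.290% and 0.169% of genes with mRNA sites. For lincRNAs it was 1.39% and 1.37%, and for processed transcripts 0 and 0. The cluster caller itself requires conversions at 2 positions, so the fraction is bounded by the same step that lists a site.

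Some of the highest read totals came from few distinct reads. At least 5 reads per distinct read were found at 11 (1.80%) and 14 (2.33%) of the listed loci in the 2 replicates, and at 9 (0.217%) and 8 (0.193%) of the genes with mRNA sites. RP5-875O13.1 is the extreme case, with 1320 reads from 53 distinct reads in replicate 2 and no listing in replicate 1. The random barcodes had been collapsed before alignment, and the part of copied reads in these totals was not tested.

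Introns. The 139 intron loci lay in genes that were longer at the median. Their genes had a median length of 74586 bases in RefSeq (quartiles 24180.5 and 206620, 139 of 139 matched). Genes with mRNA sites had a median of 24918 bases (quartiles 10307 and 55157.5, 4566 of 4587 matched). The intron loci held 28.5% and 26.7% of the intron clusters called in activated EIF3A/C/B but only 2.91% and 3.02% of all intron reads. Most intron reads fell in no listed cluster or in genes that also had mRNA sites.

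ATN1, the gene of the transcriptional corepressor atrophin-1 (chr12:6924459-6942321), had the most intron reads. It had 343 and 380 reads in activated EIF3A/C/B with T-to-C fractions of 0.84 and 0.81, and it was 1 of only 8 loci listed in non-activated EIF3A/C/B at all, with 12 and 13 reads. In EIF3B/C it had 203 and 207 reads with activation and 38 and 56 without. At the non-activated depth the activated EIF3B/C total would correspond to 110 reads over both libraries.

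SHF, an adaptor protein gene (chr15:45167214-45201116), had 356 and 236 reads, from 42 and 27 distinct reads. MAP3K2, a kinase upstream of the JNK and ERK5 pathways (chr2:127298668-127388465), differed from it in form, with 137 and 149 reads spread over 8 sites in each replicate. DLG1, a scaffold protein of cell contacts and of the T cell synapse, had 119 and 121 reads. The replicates of MAP3K2 and DLG1 lay close together. FAM120AOS had 98 and 139 reads. PARD3B, a cell polarity gene of 1074688 bases, was listed in replicate 2 alone, with 280 reads from 39 distinct reads and a T-to-C fraction of 0.29. Its RNA was near the floor of the RNA-Seq means, at 0.0034 and 0.0035 TPM, whereas MAP3K2 stood at 0.84 TPM in activated and 4.24 TPM in non-activated cells. As given above, TPM of the states is not on the same scale.

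Long intergenic noncoding RNAs. The lincRNA loci had the highest median of the large classes, 22 and 20 reads, and held 85.1% and 79.5% of the lincRNA clusters in activated EIF3A/C/B. LINC00657, also called NORAD (chr20:36045618-36050960), is an abundant cytoplasmic RNA known for binding Pumilio proteins. It had 307 and 281 reads over 14 and 12 sites, more sites than any other named lincRNA, and 461 and 386 reads in activated EIF3B/C. CASC15 (chr6:21666413-22195820) had 138 and 133 reads, and CRNDE (chr16:54918863-54928886) had 124 and 136. For these 3 RNAs the replicates lay close together.

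Among the lincRNAs with the most reads, few distinct reads made up the totals of the clone-named ones. RP11-473M20.16 had 541 and 90 reads from 27 and 24 distinct reads, and in EIF3B/C it was listed with 418 reads in activated replicate 2, with 43 reads in non-activated replicate 1 and in neither of the other libraries. XXbac-BPG308K3.6 had 261 and 243 reads from 10 and 19 distinct reads, with T-to-C fractions of 0.99 and 0.62. Each of these, with RP5-875O13.1, rests on a small set of distinct reads.

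Host transcripts of small nucleolar RNAs carry their snoRNA in an intron, and the spliced remainder is exported, bound by ribosomes and turned over by nonsense-mediated decay. Of 27 names of this kind in the list used, 14 were among the loci. SNHG15 had 102 and 84 reads over 6 and 7 sites, SNHG17 had 88 and 96, SNHG6 had 62 and 61, SNHG7 had 60 and 77, SNHG5 had 45 and 45, SNHG9 had 42 and 41 and SNHG1 had 30 and 30. For all 7 the replicates lay close together. The other members had at most 23 reads, and SNHG8 (8 reads) and ZFAS1 (8 reads) were each listed in a single replicate. Of 23 well-studied noncoding RNAs 9 were among the loci. Besides LINC00657, CASC15 and CRNDE they were FGD5-AS1 (92 and 93 reads), LINC00152 (59 and 58), FTX (8 and 11), RPPH1 (9 and 8), RMRP (17 reads in replicate 1 only) and TUG1 (8 reads in replicate 1 only). RMRP and RPPH1, the RNA subunits of RNase MRP and RNase P, stood at 1614 and 2039 TPM in activated cells, far above CRNDE at 2.55 TPM, so few crosslinked reads went with high abundance there.

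Pseudogenes. The 168 pseudogenes, 145 of them processed copies, had medians of 14 and 17 reads and held 98.7% and 98.8% of the pseudogene clusters in activated EIF3A/C/B. A2MP1 (chr12:9228528-9274348), related to the protease inhibitor gene A2M, had 390 and 322 reads from 76 and 69 distinct reads. PTMAP2 (chr5:118973562-118974820), another copy of PTMA, had 109 and 169 reads, UQCRFS1P1 had 107 and 92, ABHD17AP6 had 90 and 114 and FAM35DP had 80 and 124. CTD-2192J16.15 had 105 and 129 reads from only 9 and 13 distinct reads, and nearly every read carried a conversion (1.00 and 0.98).

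A parent name could be read from 133 names, of which 105 were in the pseudogene class and 28 in the processed transcript class, and 123 pairs were found in GENCODE 44. The parent was itself listed in activated EIF3A/C/B for 107 of these (87.0%), and in 92 pairs it had more reads than the copy. PTMA had 715 and 1021 reads, above both PTMAP5 and PTMAP2, whereas UQCRFS1 had 42 and 67 reads, below UQCRFS1P1. A median of 50.2% of the 20-base windows of a copy were also found in its parent, and the share ran from 0 to 100%. It was 69.1% for PTMAP5, 76.6% for PTMAP2 and 81.8% for UQCRFS1P1. A2MP1 is the contrast, with 0.219% of windows shared and A2M not listed.

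A further limit is particular to conversion-based mapping. Of 941 isolated substitutions between copies and parents, 147 (15.6%) had T in the parent and C in the copy, where a converted read of the parent has the letters of the copy. At least 1 such base was found in 61 of the 123 pairs. Reads that fall on windows shared with the parent, or on such a base, are uncertain. By parent group, and over the replicates that list each copy, 22 copies of ribosomal protein genes had a median of 18.25 reads, 6 hnRNP copies 9, 4 actin or tubulin copies 18, 3 GAPDH copies 16, 3 histone copies 24.5 and 2 elongation factor copies 17.5, and the other 93 had 12.5.

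**Figure D2:**
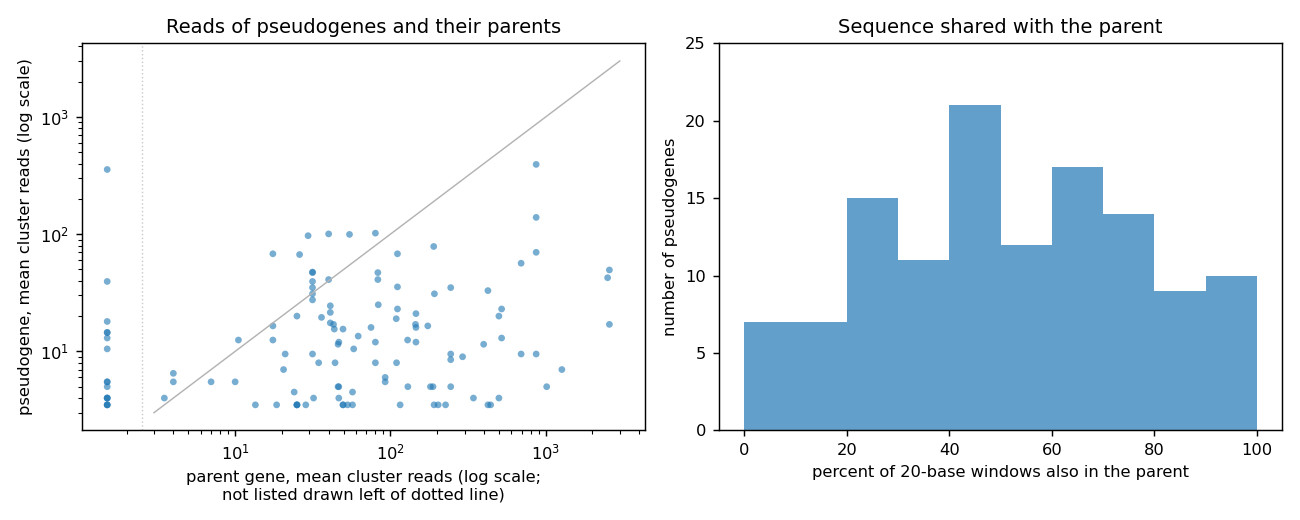
Left, mean reads of each pseudogene (vertical) against its parent gene (horizontal) in activated EIF3A/C/B on log axes; right, how many pseudogenes share a given percent of their 20-base windows with the parent. Most points lie on the side of the parent, which had more reads in 92 of 123 pairs, and the shared percent covers the whole range with a median of 50.2%.

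Processed transcripts, boundaries and small RNAs. PTMAP5 (chr13:81689896-81691080), typed as a processed transcript in the lists although it is a PTMA copy, had 485 and 302 reads. SAMD1, a chromatin protein gene, had 214 and 244 reads with T-to-C fractions of 0.69 and 0.68. DESI2 had 120 and 117, C10orf2, which encodes the mitochondrial DNA helicase Twinkle, had 111 and 104, the SMG1 copy SMG1P3 had 93 and 108 and the ubiquitin ligase gene UHRF2 had 102 and 94. Apart from PTMAP5 the replicates of these loci lay close together.

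The boundary loci were led by ODC1, FTH1 and DNAJA1. ODC1, which makes the enzyme of the first step of polyamine synthesis (chr2:10439968-10448327), had 299 and 335 reads with T-to-C fractions of 0.66 and 0.65. FTH1, the ferritin heavy chain, had 170 and 214, and the chaperone gene DNAJA1 had 157 and 158, each at 1 site from the 5'-UTR into the intron. All 59 boundary loci listed in both replicates lay within a factor of 2. Among other types, BCL2L14, a BCL2 family gene typed as a decay transcript (chr12:12049861-12099695), had 428 and 425 reads, AJ003147.9 had 249 and 524, and AC007040.8 had 501 reads in replicate 2 alone. The small RNAs were led by the U3 snoRNA entry ACEA_U3, which guides ribosomal RNA processing, with 1000 and 1085 reads. U11, an RNA of the minor spliceosome, had 212 and 220, and RNA5SP452 had 60 and 53 with low T-to-C fractions of 0.33 and 0.30.

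Across the bands, the loci were listed mainly in EIF3A/C/B and EIF3B/C of activated cells. In EIF3B/C of activated cells 397 (52.8%) were listed in either replicate, against 68.1% of genes with mRNA sites. The shares were 12.6% against 23.5% in EIF3D/L, 2.93% against 7.35% in EIF3F/E and 2.53% against 5.86% in EIF3G/E/F, so they were below those of mRNA sites in each band. Pseudogenes had the lowest share in EIF3B/C (36.9%) and lincRNAs the highest of the large classes (59.5%). These bands come from the same activated cells as the band of the rule, and the shares are a description. In EIF3B/C 66 of the 397 (16.6%) did have an mRNA site, and in EIF3D/L 19 of 95 (20.0%), so the absence of mRNA sites in EIF3A/C/B did not carry over to every band.

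By number of bands, 342 loci were listed in activated cells in EIF3A/C/B alone, 316 in 2 bands, 70 in 3, 19 in 4 and 5 in all 5. The last were ACEA_U3, U11, BCL2L14, PTMAP5 and RPL10, a ribosomal protein gene whose listed type is lincRNA. In activated EIF3F/E replicate 1, 672 of the 1238 reads on the loci belonged to CH17-118O6.3, an antisense entry named here after its values were seen, which replicate 2 of that band did not list.

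Between the states, far fewer loci were listed in non-activated cells. EIF3A/C/B listed 611 and 600 in activated cells and 6 and 5 in non-activated cells, EIF3B/C 321 and 320 against 43 and 86, and EIF3D/L 57 and 74 against 5 and 5. In all, 97 of the loci were listed in any non-activated library. Among the 8 in non-activated EIF3A/C/B were ATN1, PTMAP5, FAM35DP and U11. As a share of all genes listed, they made up 12.4% and 12.3% against 3.64% and 3.18% in EIF3A/C/B, 9.13% and 9.26% against 6.15% and 7.59% in EIF3B/C, and 6.94% and 6.99% against 3.97% and 4.27% in EIF3D/L. The loci were chosen in activated cells and depth differed as given above, so both counts and shares are a description. In this bulk material less of an RNA per cell and fewer cells that hold it cannot be told apart.

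**Figure D3:**
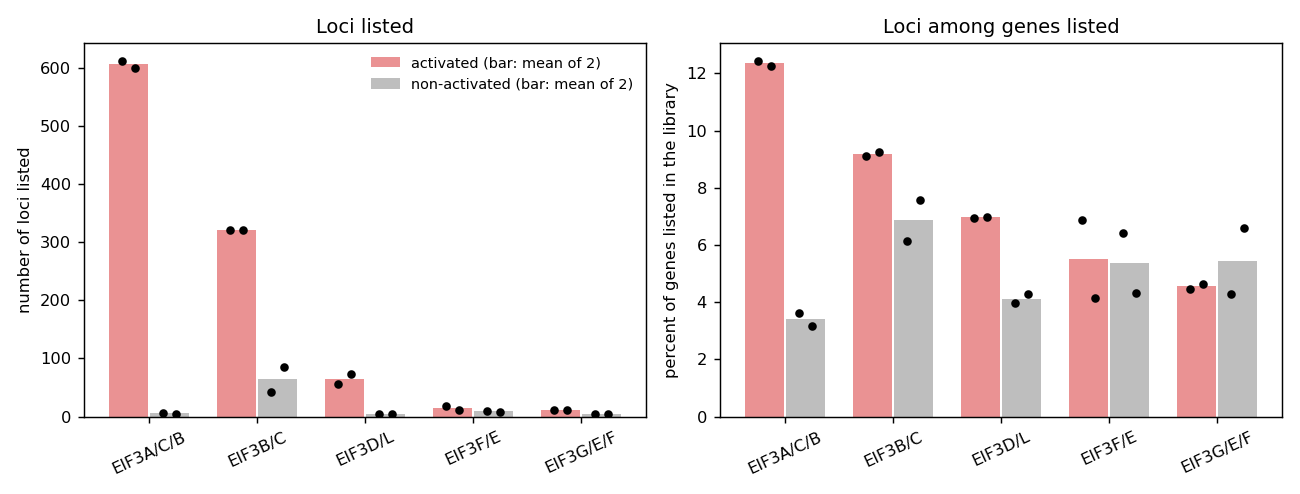
Number of loci listed per library (left) and their percent of all genes listed (right) for the 5 bands, with bars for the mean of each state, in different colours, and a point per replicate. The 2 activated EIF3A/C/B libraries list 611 and 600 loci, and the counts fall through EIF3B/C and EIF3D/L to at most 19 in the other bands.

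Reads per gene were tested between the states in EIF3B/C and EIF3D/L, which the rule did not use. The test was edgeR's quasi-likelihood test over every gene that reached 20 reads in 1 or more libraries of a band, with a gene that is not listed entered as 0 and p-values adjusted over all of them (Benjamini-Hochberg, threshold 0.05). In EIF3B/C, 165 of the loci were tested. Of these 58 (35.2%) were higher in activated cells, 9 (5.45%) were lower and 98 were not called, against 40.9% higher and 2.47% lower among all 2188 genes tested. The share of higher calls among the loci was thus near the background.

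All 58 higher loci were ones that neither non-activated EIF3B/C library listed. Among them were CH17-118O6.3 (425 and 288 reads in activated cells), SHF (105 and 202), ODC1 (97 and 114), AJ003147.9 (97 and 123), CASC15 (87 and 104) and MAP3K2 (101 and 68). They were chosen by their listing in the same activated cells and passed the filter through the activated libraries, so these calls are no support for a difference between the states. No fold change or p is given for them, since they can have had reads in clusters under the minimum of 7 in non-activated cells. At the non-activated depth, the activated reads of CASC15 would correspond to 51.4 reads over both libraries and those of MAP3K2 to 45.4. The 66 tested loci listed in both states had a median log2 fold change of -0.10, with 0 called higher and 8 lower by edgeR. For 951 other genes listed in both states the median was 0.68, with 107 higher and 44 lower. A gene with few activated reads can be listed in both states only with a low fold change, since activated cells had 3.72 times the depth. The loci had fewer reads than genes with mRNA sites in EIF3A/C/B, so these medians are a description and no contrast is drawn from them. Of all 165 loci, 82 had an unadjusted p under 0.05, and DESeq2 called 20 higher and 3 lower.

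Each of the 9 lower loci is named here because they are few. SNHG17 had 95 and 90 reads with activation and 39 and 69 without, a log2 fold change per aligned read of -1.10 (SE 0.21, adjusted p = 0.0270, edgeR). SNHG5 had 27 and 36 against 33 and 44 reads (-2.20, SE 0.30, adjusted p = 0.0234, edgeR). RPS2, a ribosomal protein gene with a boundary site, had 80 and 86 against 71 and 99 reads (-1.94), and RPL10 had 53 and 65 against 37 and 48 (-1.44). The raw reads of the states overlapped at SNHG5 and RPS2. At SNHG17 and RPL10 they did not overlap and were higher with activation. The fold changes are per aligned read, at 3.72 times the depth in activated cells, so the lower direction at SNHG17 and RPL10 rests on this scaling. PKP4, a cell junction protein gene, fell by 1.35 on the log2 scale and PI4K2B, a phosphatidylinositol kinase gene, by 1.86. CNPY2 fell by 1.61 and RP11-785H5.1 by 1.27. ZFAS1 was listed in the non-activated libraries of this band (22 and 26 reads) and in neither activated one. It passed the filter through the non-activated libraries alone, so its call is no support for a difference between the states.

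Among the host transcripts, 8 were tested in EIF3B/C. SNHG5, SNHG17 and ZFAS1 (not listed in activated EIF3B/C) were lower. SNHG21 (23 and 22 reads, not listed in non-activated cells) was higher, and SNHG15, SNHG9, SNHG7 and SNHG1 were not called. SNHG15 had 89 and 80 reads against 17 and 33, and its log2 difference was -0.11 (SE 0.26). Of the well-studied RNAs 4 were tested and CASC15 alone was called. LINC00657 had 461 and 386 reads in activated cells and was listed in non-activated replicate 2 only, with 21, a log2 difference of 3.59 (SE 1.22) with an adjusted p of 0.0850 by edgeR. The remaining loci with the most EIF3B/C reads were not called. They were ACEA_U3 (623 and 678 reads against 121 and 300), BCL2L14 (524 and 314 against 56 and 274), U11 (236 and 269 against 41 and 81), RP11-473M20.16, ATN1, PTMAP5 (148 and 228 against 37 and 80), UBE2G1 (154 and 157 against 34 and 55) and CYHR1 (174 and 153 against 54 and 76). For ATN1 the log2 difference was 0.22 (SE 0.18), and for UBE2G1, a ubiquitin conjugating enzyme gene, it was -0.08 (SE 0.19).

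With activated replicate 1 or activated replicate 2 of EIF3B/C left out edgeR called 0 genes, and 7 and 6 of the loci then had an unadjusted p under 0.05. With non-activated replicate 1 or 2 left out, 67 and 83 loci were higher and 18 and 10 lower.

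In EIF3D/L the states were closer in uniquely aligned reads (1.23 times more in activated cells) but not in what those reads covered. With activation mRNA regions held 98562 and 123223 reads, against 23727 and 22234 without, and listed clusters held 21085 and 30945 against 2568 and 2178. Here 16 loci were tested, of which 12 (75.0%) were higher in activated cells and 0 were lower, against 74.5% higher and 0.232% lower among all 431 genes tested, so the share again stood near the background. An unadjusted p under 0.05 was found for the same number, 12, and DESeq2 called 7. All 12 were chosen by their listing in the same activated cells. Only ACEA_U3 among them reached the read minimum of the test in non-activated libraries as well. PTMAP5, BCL2L14 and the rest passed that filter through the activated libraries. Their calls are thus no support for a difference between the states, and the values below for PTMAP5 and BCL2L14 are a description. Of the 12, 3 were also listed in non-activated cells. ACEA_U3 had 204 and 211 reads with activation and 22 and 23 without, a log2 fold change of 2.91 (SE 0.37, adjusted p = 0.00114, edgeR). PTMAP5 had 42 and 47 against 11 and 7 reads (2.01, SE 0.47, adjusted p = 0.00757, edgeR). BCL2L14 had 101 and 127 reads against 14 in non-activated replicate 1 only (3.72, SE 0.92, adjusted p = 0.00943, edgeR). In none of these did the raw reads of the states overlap, and their calls depended on the scaling. PTMAP5 was at 0.13, 0.10 and 0.050 with TMM, DESeq2 and mRNA-region scaling (adjusted p from 0.802 to 0.940, edgeR and DESeq2), and BCL2L14 at 1.85, 1.83 and 1.77 (0.247 to 0.268) and at 2.05 with distinct reads (0.0549, edgeR). ACEA_U3 was at 1.04 with TMM (adjusted p = 0.0387, edgeR), and its call was lost with DESeq2 (0.0803) and with mRNA-region scaling (0.95, adjusted p = 0.0586, edgeR). BCL2L14 and the loci not listed in non-activated cells are also subject to the minimum of 7 reads.

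The other 9 were not listed in non-activated EIF3D/L. They included U11 (46 and 53 reads), ATN1 (43 and 45), DNAJA1 (25 and 38), RPL10 (31 and 19), MICALCL (14 and 33) and RP11-673C5.2, which had 64 reads in activated replicate 2 alone. A2MP1 had 48 reads in activated replicate 2 and 9 and 23 in non-activated cells and was not called (adjusted p = 0.929, edgeR). As in EIF3B/C, edgeR called 0 genes without activated replicate 1 or without activated replicate 2, where 1 of the loci had an unadjusted p under 0.05 each time, although the value for ACEA_U3 stayed at 2.77 and 3.04. Without either non-activated replicate 12 loci were higher.

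The deposited statistics count all uniquely aligned reads by RNA class, in a called cluster or not, so the minimum of 7 reads does not enter them. They cover every gene of a class and not only the loci of the rule, whose cluster reads made up 24.3% of the pseudogene reads, 15.8% and 16.2% of those of processed transcripts, 7.63% and 10.2% of those of lincRNAs and 2.91% and 3.02% of intron reads in activated EIF3A/C/B. Each band was tested on its own with edgeR over all classes with at least 20 reads, per uniquely aligned read. Classes called higher and lower in activated cells were 27.5% and 27.5% of 40 in EIF3A/C/B, 34.2% and 28.9% of 38 in EIF3B/C, 73.7% and 15.8% of 38 in EIF3D/L, 15.6% and 40.6% of 32 in EIF3F/E and 23.3% and 40.0% of 30 in EIF3G/E/F. With TMM scaling, the counts in EIF3D/L were 15 higher and 12 lower in place of 28 and 6, and in EIF3G/E/F 13 and 6 in place of 7 and 12.

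Reads in lincRNA introns were lower in activated cells in all 5 bands, although in EIF3G/E/F the direction turned with TMM scaling. They made up 2.18% ± 0.02 (SD, n = 2) of reads in activated and 6.72% ± 0.34 in non-activated EIF3B/C, a log2 fold change of -1.63 (SE 0.04, adjusted p = 1.23e-05, edgeR). In EIF3D/L they made up 2.46% ± 0.33 against 9.59% ± 0.15 (-1.96, SE 0.07, adjusted p = 4.80e-09, edgeR), and in EIF3F/E 3.12% ± 0.12 against 5.99% ± 0.12 (-0.94, SE 0.04, adjusted p = 0.000256, edgeR). In EIF3A/C/B the share was 2.67% ± 0.25 against 5.60%, a log2 fold change of -1.07 (edgeR adjusted p = 0.000165 with both non-activated libraries, 0.0115 with them counted as 1). In EIF3G/E/F it was 4.92% ± 0.37 against 5.88%, and there the log2 difference of -0.26 (edgeR adjusted p = 4.98e-06, and 0.00445 with the non-activated pair counted as 1) turned to 0.049 with TMM scaling and was not called without non-activated replicate 2 (adjusted p = 0.0519, edgeR). The shares of the 2 states did not overlap in any of the 5 bands.

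These lincRNA intron reads were unlike the clustered ones. In activated EIF3A/C/B 0.16 and 0.17 of them carried a T-to-C conversion, against 0.77 and 0.78 of those in called clusters and 0.82 and 0.82 of 3'-UTR reads, and 0.73 and 0.69 of them were marked as redundant copies. Intron reads stood between, with 0.53 and 0.53 converted overall and 0.85 and 0.86 in clusters. The fraction also moved with band and state. Intron reads of activated EIF3F/E had a mean of 0.225 and those of non-activated EIF3D/L of 0.22, with redundant copy shares of 0.585 and 0.555. The part of unconverted and copied reads in the class differences was not tested.

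The share of intron reads was 9.79% ± 0.08 against 11.3% in EIF3A/C/B, 11.1% ± 0.05 against 10.3% ± 0.08 in EIF3B/C, 10.7% ± 0.06 against 12.0% ± 0.59 in EIF3D/L, 13.3% ± 0.35 against 12.6% ± 0.03 in EIF3F/E and 11.2% ± 0.56 against 14.9% in EIF3G/E/F. All 5 differences passed the test, with log2 fold changes of -0.20, 0.11, -0.17, 0.08 and -0.42 and edgeR adjusted p of at most 0.0361 (0.00322 in EIF3A/C/B and 5.50e-09 in EIF3G/E/F with the non-activated pair counted as 1). Their size hung on the scaling. The value for EIF3B/C turned to -0.090 and that for EIF3A/C/B became -0.45 with annotated reads as library sizes, and TMM scaling gave -0.84 in EIF3D/L and 0.34 in EIF3F/E. For EIF3G/E/F, TMM scaling gave -0.11 with an adjusted p of 0.0755 by edgeR.

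Exonic lincRNA reads were higher in activated EIF3A/C/B, at 1.09% ± 0.01 against 0.557%, a log2 fold change of 0.97 (edgeR adjusted p = 3.35e-06 with both non-activated libraries, 0.000856 with them counted as 1). In EIF3F/E they were at 1.19% ± 0.35 against 0.670% ± 0.03 (0.83, SE 0.24, adjusted p = 0.0470, edgeR), a call that was lost without non-activated replicate 2 (0.78, adjusted p = 0.0624, edgeR). In EIF3B/C no difference was called (0.09, SE 0.08). The log2 difference of 0.54 in EIF3D/L turned to -0.13 with TMM scaling, and that of -0.38 in EIF3G/E/F had an edgeR adjusted p of 0.0844 with the non-activated pair counted as 1. Redundant copies made up a mean of 0.53 of these reads in activated and 0.135 in non-activated EIF3A/C/B, and 0.695 against 0.3 in EIF3F/E. Their share was lower with activation in EIF3B/C (0.375 against 0.39), EIF3D/L (0.135 against 0.575) and EIF3G/E/F (0.105 against 0.215). The part of copied reads in these differences was not tested.

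Reads on processed pseudogenes differed most in EIF3D/L, at 0.864% ± 0.003 in activated and 0.291% ± 0.010 in non-activated cells. The log2 fold change was 1.57 (SE 0.04, adjusted p = 5.31e-10, edgeR) and lay between 0.71 and 0.90 under TMM, DESeq2 and annotated-read scaling. In EIF3F/E they were lower, at 0.446% ± 0.011 against 0.729% ± 0.034 (-0.71, SE 0.09, adjusted p = 0.00445, edgeR). The difference of 0.18 in EIF3B/C was called (adjusted p = 0.0186, edgeR) but not without activated replicate 1 or 2 (adjusted p of 0.119 and 0.123, edgeR), and it was -0.01 with annotated-read scaling. Those in EIF3A/C/B (-0.05) and EIF3G/E/F (-0.11, and 0.20 with TMM scaling) were not called, nor were they with the non-activated pairs counted as 1 (edgeR adjusted p of 0.235 and 0.551). Coding, 5'-UTR and 3'-UTR reads had log2 fold changes of 1.76, 1.99 and 2.38 in EIF3D/L, so the rise there was not particular to pseudogenes. In EIF3F/E the same mRNA classes were at -0.54, 0.21 and 0.31. Processed transcripts were called in no band, with edgeR adjusted p from 0.0599 to 0.948 and unadjusted p under 0.05 in EIF3G/E/F alone. With the pairs counted as 1 the edgeR adjusted p was 0.188 in EIF3A/C/B and 0.287 in EIF3G/E/F. Their share ran from 1.44% to 2.06% over the 20 libraries.

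**Figure D4:**
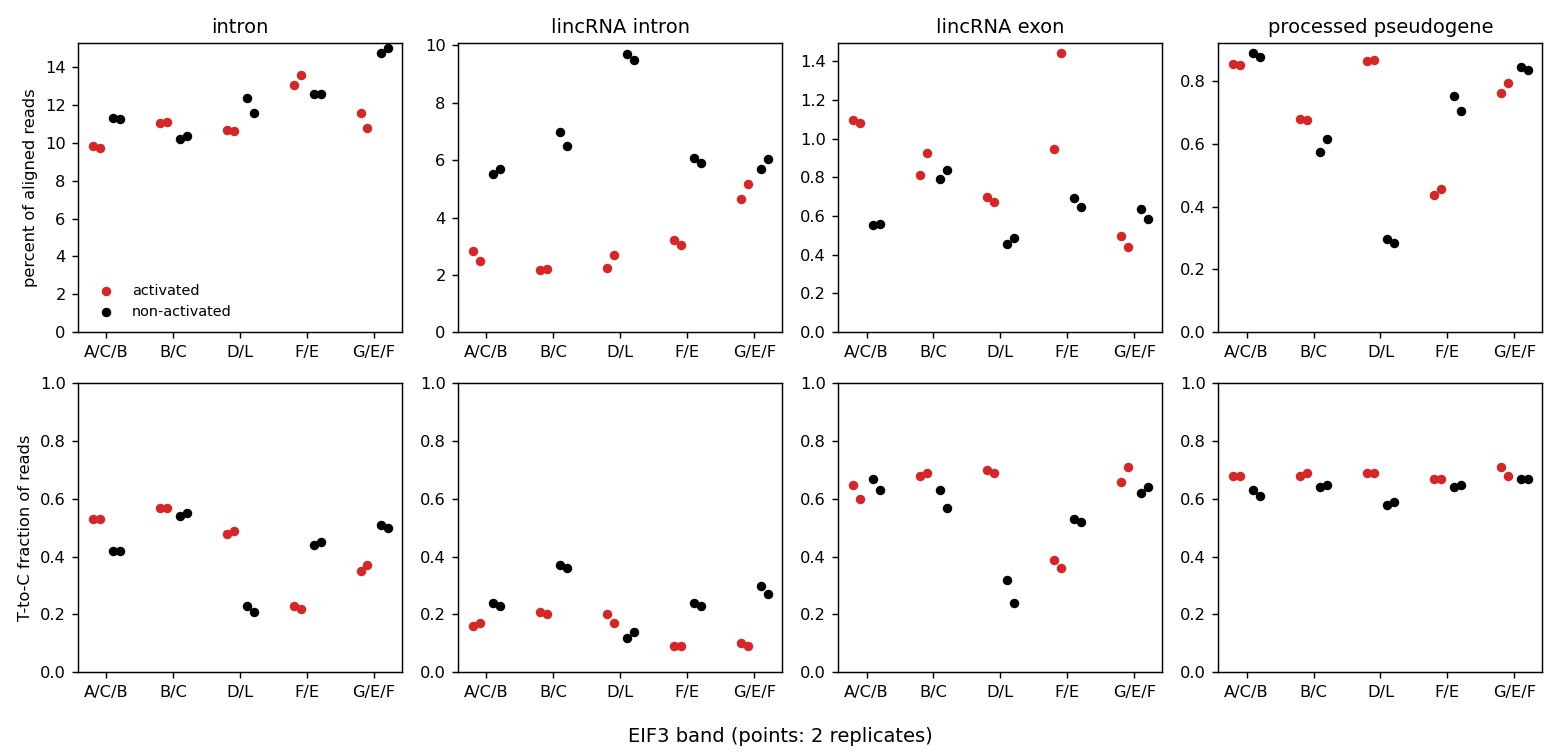
Percent of uniquely aligned reads and read-level T-to-C fraction for RNA classes in the 5 bands, with a point per replicate and a colour per state. Reads in lincRNA introns are lower in activated libraries, for example 2.18% against 6.72% in EIF3B/C, and their T-to-C fraction stays far under that of exonic lincRNA reads in EIF3A/C/B (0.165 against 0.625).

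The RNA-Seq means give the abundance of the loci with no error. Over 8487 genes with a mean of at least 1 TPM the median log2 ratio of activated to non-activated TPM was -2.35, and entries named after 3 groups of genomic clones took 85.2% of all TPM in activated and 52.4% in non-activated cells, so ratios are given relative to that median. Relative to it, median ratios were 0.03 for 74 intron loci, -0.16 for 43 lincRNAs, -0.19 for 9 pseudogenes and 0.04 for 66 processed transcripts, and -0.05 for 3853 genes with mRNA sites. Pseudogenes had the lowest levels, with medians of 0.03 TPM in activated and 0.07 in non-activated cells (117 matched), against 0.97 and 4.70 for genes with mRNA sites. The highest pseudogene by reads, A2MP1, was at 0.0005 and 0.0027 TPM.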

How the data were processed

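PAR-CLIP of 20 libraries was used with the deposited RNA-Seq means. Per the study's methods, barcode duplicates were collapsed, Bowtie 1.0.0 placed the reads on hg38 and PARalyzer called the clusters (at least 7 reads per cluster, 2 conversion positions, a read length of 20), annotated with GENCODE 21. The deposited counts are whole reads and sites per gene and reads per RNA class, and the T-to-C fraction is likewise the authors' own value. The authors made TPM with kallisto 0.46.0, deposited as the mean of 2 replicates, so their depth is unknown. PAR-CLIP depth was 83846 to 1163754 uniquely aligned reads.

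States were compared with edgeR 4.0.16 in R 4.3.3 per band (at least 20 reads in any library, uniquely aligned reads as library sizes, state as the only term). DESeq2 1.42.0, TMM, other library sizes, no filter, distinct reads, leaving out each library and a replicate block were alternatives. Fits were tested on simulated data. Nothing says that replicate numbers mark shared cultures. GENCODE 44 and RefSeq models of GRCh38 gave sequences and positions. Named loci are the 6 with the most reads in each of 4 main classes, the 3 in each other class, the 10 with the most activated reads tested per band, and the members of the lists. The loci and lists were chosen with earlier results of these data known.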

Additional observations from a re-analysis of the deposited data

Results flagged for a closer look

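The effect of activation on reads per RNA class differed between the 5 bands for 4 of the 5 classes followed here, by a band-by-state interaction in edgeR over all 20 libraries, a fit chosen after seeing the data. For processed pseudogene reads the edgeR adjusted p was 4.10e-12, with log2 fold changes from -0.71 in EIF3F/E to 1.57 in EIF3D/L. For lincRNA intron reads it was 9.06e-08, with -1.96 in EIF3D/L and -0.26 in EIF3G/E/F. For intron reads it was 6.78e-07, with -0.42 in EIF3G/E/F and 0.11 in EIF3B/C, and for exonic lincRNA reads it was 0.000327, with -0.38 in EIF3G/E/F and 0.97 in EIF3A/C/B. The adjusted p for processed transcripts was 0.816. With the non-activated EIF3A/C/B and EIF3G/E/F pairs each counted as 1 sample, the adjusted p in the same order were 6.82e-10, 4.35e-06, 2.30e-05, 0.00274 and 0.914 by edgeR. The same fit called most of all the RNA classes, so these calls are not particular to the classes followed here. For coding, 5'-UTR and 3'-UTR reads the edgeR adjusted p was 1.80e-17, 1.80e-17 and 4.06e-16. Antisense reads were among those not called (adjusted p = 0.254, edgeR). The 5 bands of a replicate and state share their cells, which the fit does not model.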

How the results depend on the processing

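In EIF3B/C the count of genes called (948 in all, 58 loci higher and 9 lower) became 355 (20 and 3) with DESeq2, and the loci called higher became 105 with no filter. In EIF3D/L 322 genes (12 loci higher, 0 lower) became 213 (7) with DESeq2 and 674 (41 higher, 1 lower) with no filter, and the loci higher became 7 with mRNA reads as library sizes and 5 with distinct reads. Leaving out 1 library gave 0 to 1424 genes, 0 to 83 loci higher and 0 to 18 lower in EIF3B/C, and 0 to 343 genes and 0 to 12 loci higher in EIF3D/L. With a replicate block 0 genes were called in either band by edgeR (15 and 3 loci at an unadjusted p under 0.05). Whether same-numbered libraries share cultures is not stated. Deviations of same-numbered libraries correlated at 0.004 over EIF3B/C genes and -0.009 over EIF3D/L genes. Over RNA classes they correlated at 0.50, -0.58, -0.29, 0.04 and 0.01 in the order of bands used above, so these values do not settle it. Classes called ranged from 19 to 24 (EIF3A/C/B), 18 to 27 (EIF3B/C), 29 to 33 (EIF3D/L), 12 to 24 (EIF3F/E) and 14 to 23 (EIF3G/E/F) with 1 library left out, and the block gave no count beyond a factor of 1.5. EIF3F/E went from 18 to 11 with DESeq2. With annotated reads as library sizes 6 classes were higher and 17 lower in EIF3A/C/B, and 8 and 16 in EIF3B/C. Scaling moved the median class by -0.67 (TMM), -0.84 (DESeq2) and -0.81 (annotated reads) in EIF3D/L and by 0.31 (TMM) in EIF3G/E/F.

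Directions that turned for values called in at least 1 of the fits were processed transcripts in EIF3A/C/B (-0.20) and introns (-0.090) and processed pseudogenes (-0.014) in EIF3B/C with annotated reads, exonic lincRNA reads in EIF3D/L (-0.13 TMM, -0.32 DESeq2, -0.28 annotated reads), lincRNA introns (0.049) and processed pseudogenes (0.20) in EIF3G/E/F with TMM, processed transcripts in EIF3F/E without activated replicate 1 (-0.24; range with 1 library left out -0.24 to 0.23) and BCL2L14 in EIF3B/C without non-activated replicate 2 (0.65; range -1.0 to 0.65). Among values called in neither fit, directions turned in EIF3B/C for U11 (-0.081 TMM, -0.22 mRNA-region sizes, -0.14 distinct reads), ATN1 (-0.052, -0.18 and -0.086 in the same order), PTMAP5 (0.16 distinct reads; -0.51 to 0.12 with 1 library left out), ACEA_U3 (-0.49 to 0.18 with 1 left out) and RP11-473M20.16 (-0.21 with the replicate block; -8.70 to 10.35 with 1 left out, no bound since libraries are unlisted). In EIF3D/L A2MP1 turned (-1.78 TMM, -1.79 DESeq2, -1.82 mRNA-region sizes, -1.67 block; -7.07 to 1.12 with 1 left out). Among classes, so did exonic lincRNA reads in EIF3B/C (-0.11 annotated reads; -0.0061 to 0.18 with 1 left out), processed pseudogenes in EIF3G/E/F (0.028 DESeq2) and processed transcripts (-0.016 TMM in EIF3A/C/B, -0.0062 block in EIF3F/E; with 1 left out -0.021 to 0.016 in EIF3B/C, -0.096 to 0.025 in EIF3D/L and -0.034 to 0.36 in EIF3G/E/F). With the non-activated pairs summed as 1, chosen after seeing the data, 20 classes were called in EIF3A/C/B and 15 in EIF3G/E/F. The cause of these shifts was not tested. Class medians of reads moved by construction among loci with at least 20 reads or listed in both replicates: introns from 14.5 to 38.25 and 17.5, lincRNAs from 21 to 45 and 24.5, pseudogenes from 15.5 to 34.75 and 20.25, processed transcripts from 15.75 to 42.25 and 18.75. T-to-C medians moved from 0.875 to 0.825 and 0.865 (introns), and at 20 reads from 0.87 to 0.845 (pseudogenes) and from 0.885 to 0.8725 (processed transcripts). The other 90 values that answer a comparison stayed within their limits. Loci under 7 reads per cluster are the limit of depth, which is reached first in non-activated EIF3A/C/B.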
